A study of Mus musculus with 9 samples.

Results

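The 35 genes described here make or control the machinery that copies DNA in S phase: the MCM, Cdc6 and Cdt1 proteins that license origins, the Cdc45 and GINS factors that activate the helicase, the E cyclins, polymerases and primase, the sliding clamp and its loader, enzymes of nucleotide supply, and factors of chromatin copying and fork repair. They were chosen by name as a functional set, and each was read on the probe set annotated to that gene alone with the highest mean log2 intensity. Of the 35 genes, 34 had such a probe set and all 34 passed the filter on dim values, among 13320 genes tested; no probe set annotated to Chaf1a alone was found. The data are 9 Affymetrix 3-prime arrays of mouse cells, 3 in each of 3 groups, and the labels call the 3 arrays of a group independent biological repeats.

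The first group, DKK1-treated ESC-RPCs, and the second, untreated ESC-RPCs (named "normal control" in the labels), are retinal progenitor cells made from the 46C embryonic stem cell line, a single line targeted in E14Tg2a.IV cells. Both went through 3 days of embryoid body culture with the ALK inhibitor SB431542 and plating on Matrigel, a sort of Sox1-positive cells at day 7 (35.8% of cells), and then 10 µM DAPT, which blocks Notch cleavage, with 20 ng/ml basic fibroblast growth factor. The first group also had 1 ng/ml DKK1, a secreted Wnt antagonist, for 1 day. The third group, primary RPCs, came from neural retina of C57 mice at postnatal day 1, and the labels describe only their dissociation. The submitters regard untreated cells as an immature stage, treated cells as a more mature stage, and primary cells as the negative control for proliferation and oncogenesis.

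DNA replication starts when the origin recognition complex, Cdc6 and Cdt1 load rings of Mcm2 to Mcm7 onto origins in G1. Cyclin E with Cdk2 and the Dbf4-dependent kinase then bring Cdc45 and the GINS complex to those rings, which makes an active helicase, and polymerases, clamp and clamp loader follow. Transcripts of most of these genes rise from late G1 into S under E2F transcription factors, whereas genes of mitosis peak later, and in the retina both sets are features of dividing progenitors and are shut down as neurons form.

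Because E2F sites are the known link between many of these genes, their promoters were searched for the letters TTTCCCGC, TTTGGCGC, TTTCGCGC and TTTGCCGC on both strands. RefSeq windows of build GRCm38.p6, 250 bases before to 50 bases after a transcript start, were at hand for 27 of the 35 genes. Of these 27 genes, 12 (44.4%) held at least 1 match, against 2.6% of all 27025 genes with a window. Among tested genes with a window the shares were 12 of 26 members (46.2%) and 4.61% of all 10716. The 12 genes were Mcm3, Mcm5, Mcm6, Mcm7, Cdc6, Cdt1, Gins3, Pola1, Rfc3, Lig1, Uhrf1 and Hells. TTTCGCGC on one strand and TTTGGCGC on the other shared 4 bases in the windows of Mcm5 and Mcm6. CCAAT, the letters of the NF-Y box, occurred in 16 of 27 genes (59.3%) against 41.1% of all genes with a window, and TTTGAA, the letters of the CHR element of many mitosis genes, in 4 of 27 (14.8%) against 20.2%. A match describes letters and is not evidence of a bound site, and no match says only that these letters are absent from the window.

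The 6 stretches printed here lie upstream of the start and show the E2F letters, in capitals, for members described below with their values on every array: Rfc3, which was called higher in untreated ESC-RPCs, Mcm6, which was called lower, and 4 that were not called. Each is 70 bases, written 5′ to 3′ on the strand of the gene. They are Mcm7 at chr5:138172016-138172085 (minus strand), Rfc3 at chr5:151651209-151651278 (minus strand), Gins3 at chr8:95633481-95633550 (plus strand), Uhrf1 at chr17:56304091-56304160 (plus strand), Pola1 at chrX:93632261-93632330 (minus strand) and Mcm6 at chr1:128359720-128359789 (minus strand).
Mcm7: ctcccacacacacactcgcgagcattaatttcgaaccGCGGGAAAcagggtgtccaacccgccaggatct
Rfc3: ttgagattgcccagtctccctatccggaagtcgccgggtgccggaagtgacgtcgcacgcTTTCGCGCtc
Gins3: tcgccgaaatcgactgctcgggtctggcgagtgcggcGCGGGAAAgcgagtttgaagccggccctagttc
Uhrf1: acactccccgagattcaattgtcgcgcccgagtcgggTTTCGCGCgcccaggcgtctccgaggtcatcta
Pola1: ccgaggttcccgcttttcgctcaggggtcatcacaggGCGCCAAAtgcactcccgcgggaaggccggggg
Mcm6: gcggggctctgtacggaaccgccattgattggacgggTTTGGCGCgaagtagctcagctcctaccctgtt
The last capital letter stood 3 bases before the start in Rfc3, 34 in Gins3, 40 in Mcm6, 131 in Pola1, 158 in Mcm7 and 178 in Uhrf1. In Mcm7, Gins3 and Pola1 the match is on the opposite strand, so the capitals read as its reverse complement.

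Values are MAS5 intensities in linear units, scaled by the authors to one trimmed mean, and differences are on the log2 scale ± SE from 1 limma model over all 9 arrays, with p-values adjusted by the Benjamini-Hochberg method over the 13320 genes and a call at an adjusted p below 0.05. The number of arrays limits the precision, and levels of different probe sets were not compared. Of 9 measured retinal progenitor markers, untreated ESC-RPCs had 3 called higher and 6 called lower relative to primary cells. Rax, a defining eye field gene, measured 1.66 to 50.2 on the 6 ESC-RPC arrays against 3185 to 4996 on the primary arrays, and the pluripotency gene Nanog measured 2103 ± 299 (SD, n = 3) in untreated ESC-RPCs against 2.35 ± 0.558 in primary cells. Of the 9 photoreceptor markers, 8 were called lower in untreated ESC-RPCs, and their summed intensity was 6452 to 7870 on ESC-RPC arrays against 47393 to 66507 on primary arrays. The 11 mesenchyme markers summed to 21015 to 25096 on ESC-RPC arrays against 3421 to 3807 on primary arrays, with 9 called higher and 1 lower in untreated cells. Of 6 measured microglia markers 4 were called lower in untreated cells (median -2.98). The 9 immediate early genes, such as Fos and Egr1, which respond within minutes to handling such as tissue dissociation, were all called lower in untreated than in primary cells (median -1.34), and their summed intensity was 4825 to 5799 on ESC-RPC arrays against 16431 to 18938 on primary arrays. The lowest value in the series is 1, so no marker is listed at 0. These gene groups move with every comparison against primary cells below, and their part in the results was not tested.

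One array stood apart in these genes. Primary replicate 2 was the highest of the 3 primary arrays for 33 of the 34 members, where it was the highest for 40.1% of all genes tested. Its median member value was 1.62-fold above the mean of the other 2 primary arrays (0.70 on the log2 scale, against 0.03 over all genes). The excess was largest for Cdc6, the helicase loader, at 3.62-fold, for the uracil DNA glycosylase Ung at 3.39-fold, for Ccne2 at 2.85-fold and for Chaf1b at 2.59-fold. The exception was Pola1, the catalytic subunit of polymerase alpha, which measured 935, 626 and 614 on primary replicates 1, 2 and 3.

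The genes of mitosis went the other way on that array: 27 of 29 measured mitosis genes were lower on primary replicate 2 than the mean of the other 2, with a median of -0.29. By role, the median excess was 1.15 for the fork and repair pair, 0.97 for chromatin genes, 0.77 for licensing genes and 0.40 for clamp, loader and lagging-strand genes. The E cyclins differed, with Ccne2 at 1.51 and Ccne1 at 0.61. Over all genes, 6.69% differed from the other 2 primary arrays by more than 1 on the log2 scale on replicate 2, against 4.08% on replicate 1 and 4.32% on replicate 3. Photoreceptor markers were lower on replicate 2 for 8 of 9 genes (median -0.46), mesenchyme markers higher for 8 of 11 (median 0.52) and microglia markers lower for 5 of 6 (median -0.32). Immediate early genes were higher on it for 8 of 9 (median 0.37). Retinal progenitor markers were higher for 5 of 9 and lower for 4 (median 0.01). Postmitotic neuron markers were higher for 7 of 13 and lower for 6 (median 0.002). Summed photoreceptor intensity was 47533 on replicate 1, 47393 on replicate 2 and 66507 on replicate 3. The part of these gene groups in the excess was not tested. Each comparison with primary cells is therefore given with and without replicate 2. That array was picked out on the values of these same genes, and it was the highest primary array for 33 of the 34. Leaving it out lowers the primary mean of those genes by construction. The differences, p-values and calls without it are therefore a description of how far 1 array matters, and not a further test.

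**Figure D1:**
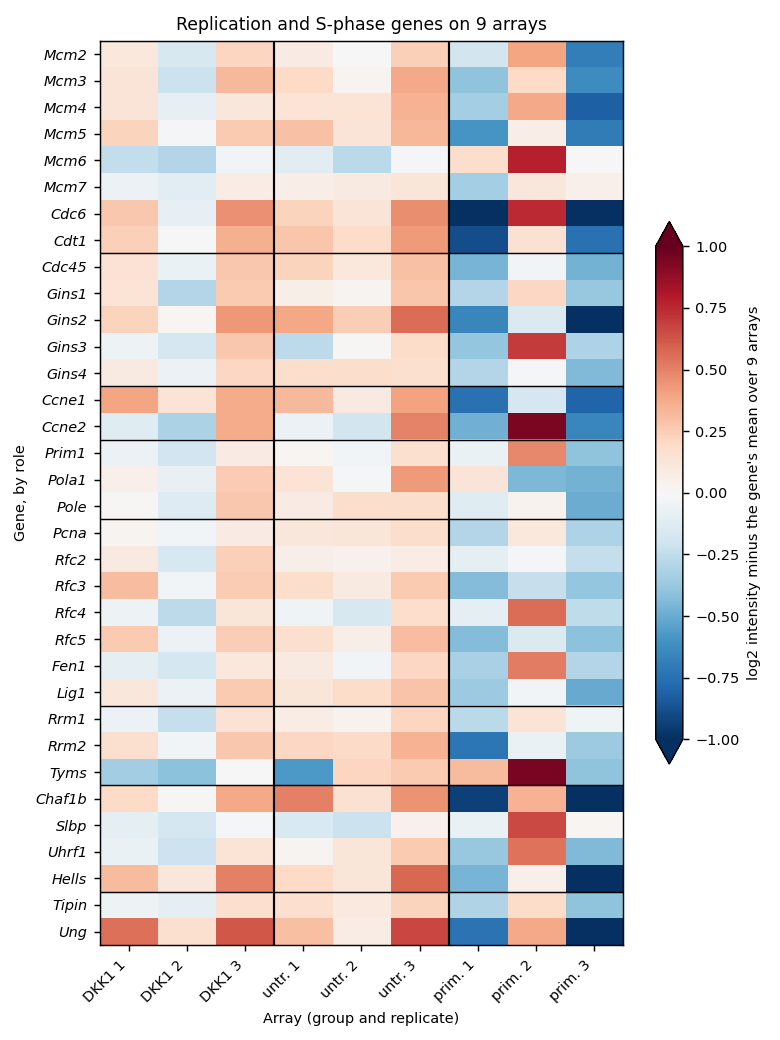
Log2 intensity of each of the 34 measured genes (rows, by role) on each of the 9 arrays (columns; untr., untreated; prim., primary), minus the gene's own mean over the 9 arrays, with red above and blue below that mean. The column of primary replicate 2 is red or pale where primary replicates 1 and 3 are blue, Pola1 excepted, and the column of DKK1-treated replicate 2 is paler or bluer than its neighbours for every gene.

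The comparison of untreated ESC-RPCs with primary RPCs sets the stem cell product beside the tissue cells used as negative control. Of the 34 measured members, 13 were higher in untreated ESC-RPCs, 1 was lower and 20 did not pass the test. The background in this comparison was high: 26.1% of all genes tested were called higher and 26.9% lower. The share of members called higher was 38.2% and of those called lower 2.94%, and their median difference was 0.38 against -0.01 over all genes. The highest among the called members were Gins2, Chaf1b, Hells, Ccne1, Cdt1 and Mcm5, all between 1.58- and 2.03-fold, while Ung (2.21-fold) and Cdc6 (1.69-fold) did not pass. All untreated arrays lay above all primary arrays for 14 members (29.5% of all genes) and below them for 1 (30.6%). With primary replicate 2 left out, limma called 24 members higher (70.6%, against 27.2% of all genes) and 0 lower (against 27.5%), and the median was 0.55. As the array was picked out on these same genes, the rise of the median follows from that choice. In arrays of whole cell populations, fewer cells in S phase and less RNA per cell cannot be told apart.

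Of the 8 licensing genes, Mcm5 and Cdt1 were higher (25%), Mcm6 was lower (12.5%) and 5 did not pass. Over all genes the shares were 26.1% higher and 26.9% lower. Cdt1, which loads the MCM ring, measured 5363, 5034 and 5967 on untreated replicates 1 to 3 against 2402, 4916 and 2641 on primary replicates 1 to 3, so that the groups did not overlap. It was 1.73-fold higher (0.79 ± 0.22; adjusted p = 0.0121, limma). Leaving out primary replicate 2 gave 1.11 ± 0.11.

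Mcm2, a ring subunit, measured 2139.7, 2028 and 2384 in untreated and 1777, 2649 and 1252 in primary cells. The untreated arrays lay between the highest and the lowest primary array, and the difference of 0.27 ± 0.22 did not pass (adjusted p = 0.325, limma). It did without primary replicate 2, at 0.55 ± 0.16 (adjusted p = 0.0138, limma). Mcm7, the subunit with the smallest difference among licensing genes, measured 10991, 11189 and 11464 against 8304, 11398 and 10886. Its groups overlapped, and neither 0.15 ± 0.11 with all arrays nor 0.24 ± 0.10 without primary replicate 2 passed.

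Mcm6, named after its values were seen because it alone was called lower, measured 3186, 2859.7 and 3417 in untreated and 3885, 5887 and 3441 in primary cells. All 3 primary arrays were above all 3 untreated arrays, by a small gap for replicate 3, and the gene was 1.36-fold lower (-0.45 ± 0.17; adjusted p = 0.0481, limma). Leaving out primary replicate 2 gave -0.22 ± 0.10, which did not pass (adjusted p = 0.105, limma). The call was also lost without untreated replicate 1 (-0.46), 2 (-0.38) or 3 (-0.51) and without primary replicate 1 (-0.52). Its second kept probe set gave -0.30. The other ring genes, Mcm3 (0.48 ± 0.20) and Mcm4 (0.47 ± 0.23), passed without primary replicate 2, at 0.72 ± 0.15 and 0.79 ± 0.13, and not with it. Cdc6 moved from 0.76 ± 0.41 to 1.38 ± 0.16 (adjusted p = 7.93e-05, limma), as its primary values were 347, 1329 and 389.

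Of the 5 helicase activation genes, Cdc45, Gins2 and Gins4 were higher (60%, against 26.1% of all genes). Gins1 (0.27 ± 0.18) and Gins3 did not pass. Gins2, a subunit of the GINS complex, measured 1130.4, 1027 and 1275 in untreated and 549.9, 781 and 414 in primary cells, with no overlap. It was 2.03-fold higher (1.02 ± 0.21; adjusted p = 0.0019, limma), the largest difference among called members. Gins3, another subunit of the same complex, measured 265, 319.5 and 361 against 242, 516 and 257. Primary replicates 1 and 3 were below all untreated arrays and replicate 2 above them all, and the difference was -0.02 ± 0.27 with and 0.33 ± 0.17 without that array, neither past the test. Cdc45, the third part of the helicase, was 1.44-fold higher (0.53 ± 0.15), and Gins4 1.34-fold (0.42 ± 0.11).

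The E cyclins, which drive Cdk2 at the G1/S boundary, differed in how far the primary arrays spread. Ccne1 measured 718, 609 and 757 in untreated and 342, 511 and 329.6 in primary cells, with all untreated values above all primary ones. It was 1.79-fold higher (0.84 ± 0.17; adjusted p = 0.00211, limma). Ccne2 measured 644, 590.4 and 945 against 478, 1283 and 425, with primary replicate 2 above all other arrays of the series. Its difference was 0.15 ± 0.37 and did not pass, and it passed without that array (0.66 ± 0.23; adjusted p = 0.0357, limma).

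None of the 3 polymerase and primase genes was called by limma with all arrays, and 2 of the 3 had an unadjusted p below 0.05 (58.5% of all genes). Pola1 measured 938, 849 and 1149 in untreated against 935, 626 and 614 in primary cells. Here replicate 1 was the high primary array, and the difference of 0.45 ± 0.18 missed the threshold (adjusted p = 0.0537, limma) as did 0.36 ± 0.19 without replicate 2. It passed without primary replicate 1 (0.65) or untreated replicate 2 (0.55). Prim1, the catalytic primase subunit, measured 2872, 2786 and 3178 against 2709, 3963 and 2151, and its groups overlapped (0.05 ± 0.18). Pole, the catalytic subunit of polymerase epsilon, passed without primary replicate 2 (0.45 ± 0.15; adjusted p = 0.024, limma) and not with it (0.34 ± 0.15).

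Of the 7 clamp, loader and lagging-strand genes, Pcna, Rfc3, Rfc5 and Lig1 were higher (57.1%, against 26.1% of all genes). The other 3 did not pass. Pcna, the sliding clamp, measured 15036, 15085 and 15627 in untreated and 11334, 14885 and 11201 in primary cells. The lowest untreated value was above the highest primary one by a small margin, and the gene was 1.23-fold higher (0.30 ± 0.10; adjusted p = 0.0212, limma). It missed the threshold without untreated replicate 3 (0.28), primary replicate 1 (0.24) or primary replicate 3 (0.23). Rfc3, a clamp loader subunit, measured 1941, 1831 and 2067 against 1273, 1468 and 1315, a wide gap in which primary replicate 2 stood 1.13-fold above its neighbours. It was 1.44-fold higher (0.53 ± 0.11; adjusted p = 0.00204, limma) and 1.50-fold without that array.

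Rfc4, a subunit of the same loader, measured 2283, 2106 and 2657 against 2204, 3456 and 1969.7, with primary replicate 2 above all untreated arrays. Its difference was -0.08 ± 0.19 with all arrays and 0.17 ± 0.13 without replicate 2, and neither passed. Rfc5 was 1.42-fold higher (0.51 ± 0.12) and Lig1, the ligase that joins Okazaki fragments, 1.41-fold (0.50 ± 0.13). Fen1, the flap nuclease of the same step, did not pass (0.13 ± 0.20) except without primary replicate 2 (0.40 ± 0.10; adjusted p = 0.00823, limma), and Rfc2 (0.17 ± 0.11) passed in neither.

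The ribonucleotide reductase subunits, which make deoxynucleotides, gave different values. Rrm2, the small subunit made in S phase, measured 10017, 9936 and 11033 in untreated and 5272, 8278 and 6746 in primary cells, with no overlap, and was 1.55-fold higher (0.63 ± 0.14; adjusted p = 0.00324, limma). Rrm1, the large subunit, measured 3655, 3568 and 4031 against 2877, 3830.3 and 3368. Primary replicate 2 lay among the untreated arrays, and the differences of 0.17 ± 0.12 with it and 0.27 ± 0.11 without it did not pass. Tyms, thymidylate synthase, was read on a dim probe set near the background of these arrays (45.6, 78.5 and 81.1 in untreated, 84.3, 131 and 51.2 in primary cells), so its difference of -0.32 ± 0.37 carries little weight.

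Of the 4 measured chromatin and histone genes, Chaf1b and Hells were higher (50%, against 26.1% of all genes). Chaf1b, a subunit of the histone chaperone CAF-1, measured 1133, 890.3 and 1090.2 in untreated and 419, 1021 and 371 in primary cells. Primary replicate 2 fell inside the untreated range, and the gene was 1.91-fold higher (0.93 ± 0.31; adjusted p = 0.0275, limma) with it and 2.62-fold without it. Its call was lost without untreated replicate 1 (0.86) or 3 (0.89) and without primary replicate 1 (0.75) or 3 (0.66). Uhrf1, which brings Dnmt1 to newly copied DNA, measured 3202, 3405 and 3760.3 against 2415, 4569 and 2307. Primary replicate 2 was above all untreated arrays, and the difference of 0.23 ± 0.22 passed only without it, at 0.55 ± 0.11 (adjusted p = 0.00175, limma).

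Hells, a chromatin remodelling helicase, was 1.87-fold higher (0.90 ± 0.29; adjusted p = 0.0245, limma), and missed the threshold without untreated replicate 3 (0.76). Slbp, the stem-loop binding protein of histone transcripts, was at -0.31 ± 0.16 and did not pass, except without primary replicate 1 (-0.45). Ung, which removes uracil from new DNA, measured 979, 836 and 1260.5 in untreated and 476, 1034 and 195 in primary cells. This was the widest primary spread among the members described here array by array, with replicate 2 inside the untreated range, and the difference of 1.14 ± 0.46 missed the threshold (adjusted p = 0.0574, limma). It passed without replicate 2 (1.73 ± 0.32; adjusted p = 0.00151, limma). Tipin, a fork protection factor, measured 5144, 4901 and 5354 against 3730.4, 5209 and 3476 and likewise passed only without that array (0.33 ± 0.14 with, 0.51 ± 0.09 without).

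**Figure D2:**
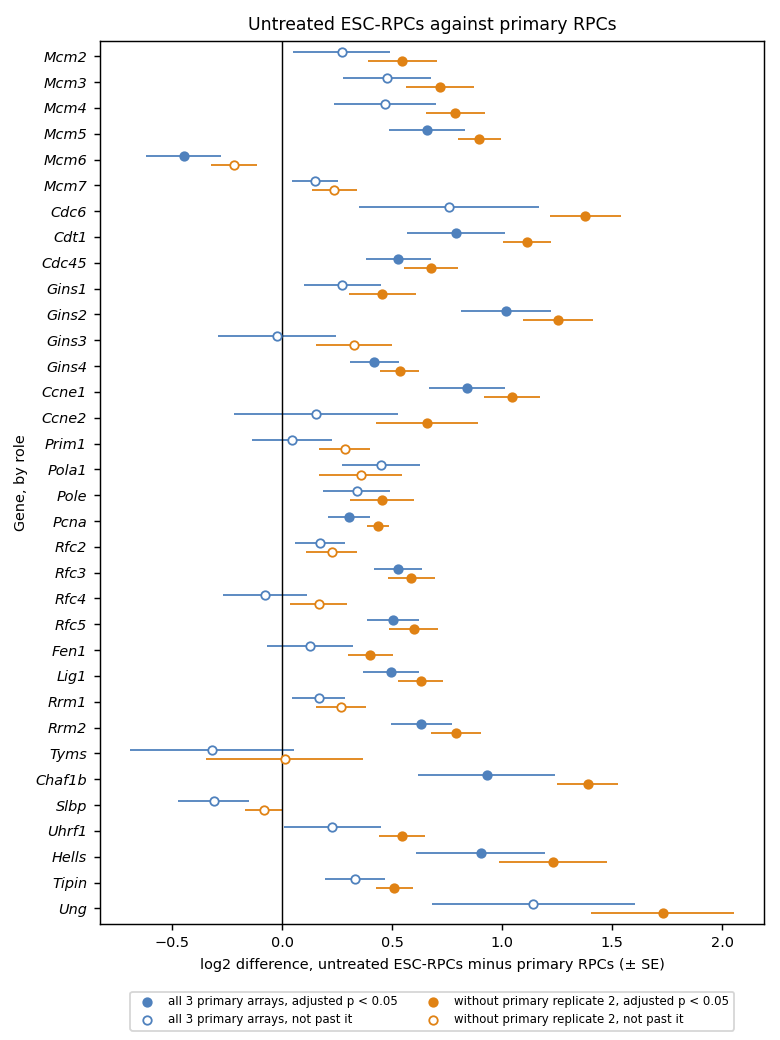
Log2 difference of untreated ESC-RPCs minus primary RPCs (± SE) for the 34 genes by role, with all 3 primary arrays (blue) and without primary replicate 2 (orange); filled points passed an adjusted p of 0.05 in limma. Filled points number 14 with all arrays, Mcm6 to the left of 0 and 13 to the right, and 24 without that array.

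Other probe sets of the same genes were read as a check on the choice of 1 per gene. The 34 genes had 74 probe sets, 66 of them past the filter, and 25 genes had several. Of the 32 kept probe sets not used above, 11 were called higher in untreated than in primary cells, 1 lower and 20 not called, when all 24773 kept probe sets with 1 gene were tested together in limma. The shares were 34.4% higher and 3.13% lower, against 24.2% and 24.7% of all those probe sets. Both further Rrm2 probe sets gave larger differences than the one used (1.01 and 0.92), and 1 further Hells probe set gave 1.68. The further Ccne1 probe set, with means of 657 in untreated and 493 in primary cells, gave a smaller difference (0.44) than the 0.84 above. Its groups overlapped, and it was not called (adjusted p = 0.0604, limma). The further probe sets of Cdc45 (-0.69) and Gins1 (-0.95) were dim, with mean intensities of 32.97 to 70.5, and pointed the other way, so that averaging the probe sets of a gene put Cdc45 at -0.08 and Gins1 at -0.34.

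DKK1-treated ESC-RPCs set against the same primary arrays gave 12 members higher and 1 lower, where 26.0% of all genes tested were called higher and 26.8% lower. The comparison shares the 3 primary arrays with the one above, so its values stand beside those and do not count as a second test. The median member difference was 0.28, against -0.01 over all genes. Those called higher were Mcm5, Cdt1, Cdc45, Gins2, Gins4, Ccne1, Rfc3, Rfc5, Lig1, Rrm2, Hells and Ung, and Mcm6 was lower. Treated arrays lay above all primary arrays for 6 members (29.0% of all genes) and below them for 1 (30.2%). With primary replicate 2 left out, 20 members were higher (27.1% of all genes) and 1 lower (27.8%), and the median was 0.47. Leaving out another array cut the count of higher members, to 5 without DKK1-treated replicate 1 and to 5 without replicate 3 of that group. It fell to 7 without primary replicate 1 and to 6 without primary replicate 3. Without DKK1-treated replicate 1, 2923 of 13320 genes were called higher, a larger share than the 5 of 34 members. With each array left out in turn, that count over all genes was 2923 to 3604.

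Ccne1 measured 753, 629 and 744 in treated cells and was 1.83-fold above primary cells (0.87 ± 0.17; adjusted p = 0.00171, limma), beside 0.84 for untreated cells. Gins2 measured 1009.7, 877 and 1170.2, with no overlap with primary cells, and was 1.80-fold higher (0.85 ± 0.21; adjusted p = 0.00552, limma), beside 1.02. Ung measured 1164, 888 and 1221 and was higher by 1.24 ± 0.46 (adjusted p = 0.0422, limma), a value close to the 1.14 of untreated cells, which missed the threshold. Its call was lost without any 1 of DKK1-treated replicates 1 (1.19), 2 (1.38) and 3 (1.15) and of primary replicates 1 (1.27) and 3 (0.62).

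Pcna measured 14169, 13629 and 14675 in treated cells, all below primary replicate 2 and above the other 2 primary arrays, and its difference of 0.19 ± 0.10 did not pass (adjusted p = 0.109, limma). Chaf1b measured 919, 809 and 1041, and 0.76 ± 0.31 did not pass either (adjusted p = 0.0606, limma). Both passed when that array was left out, at 0.33 ± 0.05 and 1.22 ± 0.14. Mcm6 measured 2901, 2805 and 3369, all below the primary arrays, and was 1.42-fold lower (-0.51 ± 0.17; adjusted p = 0.0286, limma), beside -0.45 for untreated cells. It stayed past the threshold without primary replicate 2 (-0.28 ± 0.10; adjusted p = 0.0457, limma) but not when DKK1-treated replicate 1 or 2 was left out.

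The treated and untreated ESC-RPCs were compared for differences in these transcripts after 1 day of DKK1. No member was called, and none had an unadjusted p below 0.05. In the same limma fit 0 of 13320 genes were called (0%), with 308 (2.31%) at an unadjusted p below 0.05. The SE of this fit pools the spread of all 3 groups, so scatter among the primary arrays enters it. For Mcm4 it was 0.23, and for Cdc6 0.41. In the fit of the 6 ESC-RPC arrays with a replicate block, given below, these were 0.05 and 0.07. That fit leaves out the primary arrays and also adds the block, which was chosen on the values. The part of each in the smaller SE is not told apart here. The lack of calls therefore does not show that the transcripts were unchanged. Mean values were lower after DKK1 for 28 of 34 members (82.4%), where 50.5% of all genes were lower. The tilt was not particular to the members. It also held for 26 of 29 mitosis genes (89.7%, median -0.10) and for 64 of the 86 further pathway genes described below (74.4%, median -0.07). The median member difference was -0.10, or 0.94-fold. Treated and untreated arrays did not overlap for Mcm4 (-0.16 ± 0.23) and Pcna, both with lower values after DKK1, where 6.73% of all genes did not overlap in that direction. In the other direction 0 members and 5.24% of all genes did not overlap.

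The 3 smallest unadjusted p-values were those of Rrm1, Mcm7 and Pcna. Rrm1 measured 3334, 2960.0 and 3847 on treated replicates 1 to 3 and 3655, 3568 and 4031 on untreated replicates 1 to 3. Treated replicate 3 lay inside the untreated range and the other 2 treated arrays below it, and the difference was -0.16 ± 0.12. Mcm7 measured 10097, 9721 and 11051 against 10991, 11189 and 11464 (-0.13 ± 0.11), with the highest treated array above 1 untreated one. Pcna measured 14169, 13629 and 14675 against 15036, 15085 and 15627 (-0.11 ± 0.10), with every treated array below every untreated one.

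The other members described by array showed overlapping groups. Mcm2 measured 2171, 1807 and 2338 in treated cells (-0.06 ± 0.22 against untreated), and Cdt1 5221, 4449.9 and 5670.1 (-0.10 ± 0.22). Rrm2 measured 9699, 8538 and 10460.3 (-0.11 ± 0.14). Uhrf1 measured 3003, 2721 and 3451 (-0.18 ± 0.22), the largest negative difference among members with bright probe sets. In each of these 4 genes treated replicate 2 was the lowest and replicate 3 the highest.

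The other members described array by array against primary cells had these treated values. Gins3 measured 306, 283 and 383 on treated replicates 1 to 3, and Ccne2 616, 537 and 866. Pola1 measured 885, 812 and 1021 and Prim1 2732, 2479 and 3000.3. Replicate 2 was again the lowest and replicate 3 the highest in all 4. Rfc4 measured 2272, 1959 and 2554, Tipin 4438, 4300.5 and 5146 and Rfc3 2134, 1691 and 2057, and of these only Rfc3 had replicate 1 as its highest.

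Shifts of the whole set on several single arrays were larger than the median difference of -0.10 between the groups. Against the other arrays of its group, the member median was -0.27 on DKK1-treated replicate 2 and 0.24 on replicate 3. It was -0.15 on untreated replicate 2 and 0.19 on replicate 3. On replicate 1 it was smaller, at 0.01 for treated and -0.05 for untreated cells. DKK1-treated replicate 2 was the lowest treated array for all 34 members (36.6% of all genes), DKK1-treated replicate 3 the highest for 30, untreated replicate 3 the highest for 31 and untreated replicate 2 the lowest for 26. Without DKK1-treated replicate 2 the median member difference was -0.01, without untreated replicate 3 it was -0.04 and without DKK1-treated replicate 3 it was -0.18. The genes of mitosis shared these array shifts: 29 of 29 were lowest on DKK1-treated replicate 2, and 26 of 29 highest on DKK1-treated replicate 3. Most of 13 postmitotic neuron markers went the other way. On DKK1-treated replicate 2, 11 were highest and 2 lowest (median 0.24 against the other treated arrays). On DKK1-treated replicate 3, 11 were lowest and 2 highest (median -0.31). The part of these markers in the shifts was not tested.

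Set against the untreated array of the same replicate number, the treated array was lower in all 3 pairs for 20 of 34 members and higher in all 3 for 0, where 19.0% of all genes were lower and 18.4% higher in all 3. The pair medians were -0.06, -0.17 and -0.06. The 20 genes include Mcm3 to Mcm7, Cdt1, Pcna, Rrm1, Rrm2, Uhrf1 and Tipin. The labels do not say that the numbers pair the cultures. The values correlated within numbers, as described under the processing. For unequal numbers the direction depended on the arrays matched. Treated replicate 3 was higher for 30 members against untreated replicate 1 and for 30 against replicate 2. Treated replicate 1 was higher for 19 against untreated replicate 2 and lower for 32 against replicate 3. Treated replicate 2 was lower for 32 against untreated replicate 1 and for 34 against replicate 3. In the limma fit of the 6 ESC-RPC arrays with the replicate number as a block, 65 genes (0.488%) were called, none of them a member. In that fit 14 of 34 members had an unadjusted p below 0.05, all lower after DKK1, where 15.0% of all genes reached that level. The smallest were those of Tipin, at -0.15 ± 0.04 (unadjusted p = 0.0035, adjusted p = 0.118, limma), and Pcna, at -0.11 ± 0.03 (unadjusted p = 0.00369, adjusted p = 0.12, limma). The 6 members with a higher mean after DKK1, Ccne1, Gins3, Rfc3, Slbp, Hells and Ung, lay between 0.00482 (Rfc3) and 0.10 (Ung), and none passed. The sign of Rfc3 turned with arrays set to one median and with probe sets averaged.

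**Figure D3:**
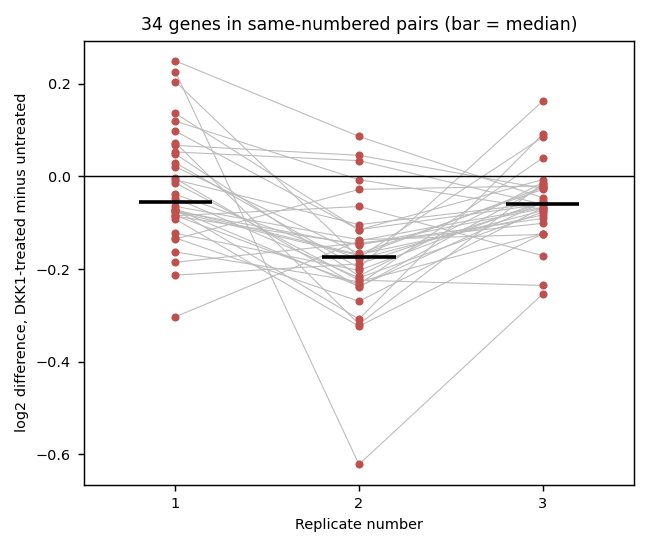
Log2 difference of the DKK1-treated minus the untreated array of the same replicate number (1 to 3) for each of the 34 genes; grey lines join a gene's points and black bars are medians. The medians lie at -0.06, -0.17 and -0.06, and single genes lie on both sides of 0 in every pair; the point at -0.62 in pair 2 is the dim Tyms probe set.

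The rest of the replication and S-phase pathway, 86 measured genes of lists written from textbook function, was compared with the members in the same fit. In untreated ESC-RPCs 28 were called higher than in primary cells (32.6%) and 15 lower (17.4%), against 26.1% and 26.9% of all genes. Their median was 0.12. With primary replicate 2 left out, 36 were higher (41.9%) and 14 lower (16.3%), against 27.2% and 27.5% of all genes. Among 15 origin firing genes 2 were higher (13.3%) and 1 lower (6.67%), both shares below those of all genes. Orc1, the origin recognition subunit that comes and goes with the cell cycle, measured 382 ± 73.2 (SD, n = 3) against 107 ± 39.8 and was higher by 1.89 ± 0.28 (adjusted p = 0.000258, limma).

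Among 25 further fork genes 10 were higher (40%) and 2 lower (8%), against 26.1% and 26.9% of all genes. The largest difference was that of Rnaseh2a, which removes ribonucleotides from DNA (1.28 ± 0.12). Top2a, the topoisomerase of S phase and mitosis, measured 8678 ± 538 against 8097 ± 302 and was not called (0.10 ± 0.08). Among 16 further nucleotide genes 7 were higher (43.8%) and 2 lower (12.5%). Tk1, thymidine kinase of S phase, was higher (1.28 ± 0.14), and Shmt2, the mitochondrial serine hydroxymethyltransferase that feeds one-carbon units, lower (-1.24 ± 0.16). Of 10 further chromatin assembly genes 4 were higher (40%) and 2 lower (20%). The histone chaperone Nasp was higher (0.81 ± 0.10), while Dnmt1, the maintenance methyltransferase that Uhrf1 recruits, was at -0.00106 ± 0.13 and not called.

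The control layer above these genes held calls in both directions. Of 20 E2F and Cdk control genes 5 were higher (25%) and 8 lower (40%) in untreated ESC-RPCs, against 26.1% and 26.9% of all genes. The 5 higher genes, named here outside the naming rule, were E2f3 (0.83 ± 0.21), Tfdp1 (0.68 ± 0.13), Cdc25a (0.65 ± 0.13), E2f5 (0.62 ± 0.12) and Rb1 (0.27 ± 0.09). E2f1, an activator of G1/S genes, measured 464 ± 94.3 (SD, n = 3) against 933 ± 188 and was lower (-1.01 ± 0.18; adjusted p = 0.000762, limma). E2f2 (-1.09 ± 0.25) and the repressor E2f7 (-1.12 ± 0.29) were lower too, both with primary replicate 2 far above its neighbours (331, 758 and 431 for E2f2 and 1061, 2822 and 1249 for E2f7). With that array left out their differences were -0.76 and -0.69, and both were still called. The Cdk inhibitors Cdkn1a (-1.47 ± 0.13) and Cdkn1b (-0.81 ± 0.14) were lower. Of 5 D cyclin and partner genes, Ccnd2 was higher, at 11274 ± 1128 against 605 ± 192, and Ccnd1 lower, at 3979.9 ± 555 against 12525 ± 2968 (-1.64 ± 0.17).

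Most genes of mitosis were not called between untreated ESC-RPCs and primary cells. Of 29 measured, 3 were higher (10.3%, against 26.1% of all genes), 9 lower (31.0%, against 26.9%) and 17 not called, with a median of -0.26. Without primary replicate 2 the counts were 2 higher (6.90%, against 27.2%) and 13 lower (44.8%, against 27.5%), and the median was -0.31. Kif23, a kinesin of the midbody, measured 799 ± 74.5 (SD, n = 3) against 1811 ± 141 and was lower (-1.18 ± 0.13; adjusted p = 3.73e-05, limma). Mki67, the proliferation marker Ki-67, measured 4116 ± 343 against 6349 ± 412 and was lower (-0.63 ± 0.11). In DKK1-treated cells 2 mitosis genes were higher than in primary cells (6.9%, against 26.0% of all genes) and 11 lower (37.9%, against 26.8%), with a median of -0.31.

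Per array, the members' median relative to the mean of the primary arrays was 0.30, 0.11 and 0.45 on DKK1-treated replicates 1 to 3 and 0.37, 0.29 and 0.50 on untreated replicates 1 to 3. It was -0.13, 0.47 and -0.28 on primary replicates 1 to 3. The median of primary replicate 2 thus lay within the range of the untreated medians. This holds for the median and not gene by gene: on that array 17 members were above their untreated mean and 17 below it. The same medians for the genes of mitosis were 0.14, -0.19 and 0.04 on the primary arrays and -0.50 to -0.05 on the 6 ESC-RPC arrays.

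**Figure D4:**
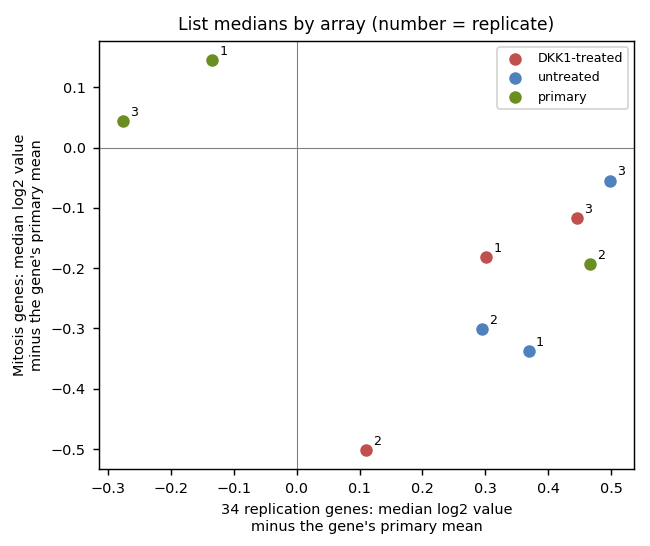
Each of the 9 arrays placed by the median, over 34 replication genes (x axis) and over 29 mitosis genes (y axis), of the log2 value minus the gene's mean on the primary arrays, with replicate numbers beside the points. Primary replicate 2, at 0.47 and -0.19, lies among the ESC-RPC arrays, while primary replicates 1 and 3 lie at the upper left.

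The promoter letters can be read beside the values as a description. The 12 members with E2F letters had a median difference of 0.49 between untreated and primary cells, with 5 called higher and 1 lower, and the 14 measured members whose window held none had a median of 0.29, with 6 higher. The 8 measured members without a window had a median of 0.34, with 2 higher. Over all genes 26.1% were called higher and 26.9% lower. The share called higher was about the same with the letters (5 of 12) as without them (6 of 14). For members without a window (2 of 8) it was near that of all genes. On primary replicate 2 the medians of the excess were 0.71, 0.70 and 0.54 in these small groups, which were not tested against each other. Mcm6 and Rfc3, called in opposite directions, both carry the letters within 50 bases before the start, as printed above, and Gins3, with letters 34 bases before the start, was not called.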

How the data were processed

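Expression was measured on 9 Affymetrix 3-prime arrays with biotin-labelled cRNA from total RNA, 3 arrays in each of 3 groups. The deposited values are linear intensities that the authors computed with MAS5, per the submitters' processing notes; version and settings are not given in the sources used here. In each deposited column the mean after trimming 2% at both ends was 500, so the arrays had been scaled. Here log2 was taken without further normalisation. Probe sets above their array's own 40th percentile (44.7 to 52.9 over the arrays) on at least 3 arrays were kept, and each gene was represented by 1 single-gene probe set, the brightest by mean log2 value.

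Groups were compared with limma 3.58.1 in R 4.3.3 (lmFit, eBayes with intensity trend, two-sided, all 9 arrays, 1 mean per group), with Benjamini-Hochberg adjustment over 13320 genes. The script was tested on simulated data. Both ESC-RPC groups carry replicate numbers 1 to 3. Deviations from group means correlated at 0.123, 0.195 and 0.318 across genes for equal numbers and at -0.234 to 0.0681 for unequal ones. Same-numbered arrays of these groups were therefore described as pairs, and fitted with a replicate block as an alternative. That pairing comes from the values and not from the labels, and the main fit does not use it. The primary arrays, with equal-number correlations of -0.0433 to -2.36e-06 against both ESC-RPC groups, were not paired.

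The members, gene lists, naming rule and tests were chosen with earlier results of these data known. The rule gives array values for the members with the largest and smallest difference between untreated and primary cells in each role, the 3 smallest p-values after DKK1, and Mcm2, Pcna, Rrm2, Ccne1, Cdt1 and Uhrf1; other lists name up to 3 genes with the largest such difference, plus Mki67, E2f1, Cdkn1a, Cdkn1b, Ccnd1, Top2a and Dnmt1. Alternatives were quantile and median scaling, other filters, an offset of 50, probe sets averaged per gene, no intensity trend, the replicate block, only the 6 arrays compared, and leaving out each array. The other gene lists without primary replicate 2 were added after seeing the data. Promoter windows are from RefSeq (GRCm38.p6).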

Additional observations from a re-analysis of the deposited data

How the results depend on the processing

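Both single arrays and settings moved the counts of members called. With 3 arrays per group the number of arrays limits precision, and leaving out primary replicate 2 changes many calls against primary cells. When single arrays were left out, 10 to 24 members were called higher in untreated than in primary cells and 0 to 1 lower. Over all 13320 genes the counts were 2938 to 3621 higher and 2999 to 3665 lower. Between DKK1-treated and primary cells 5 to 20 members were higher and 0 to 1 lower. Over all genes these counts were 2923 to 3604 and 3008 to 3704. The single lower call, Mcm6, was lost (0 members lower) against untreated cells with no filter, the mean of probe sets, no intensity trend, the replicate block on 9 or on 6 arrays, and only the 6 arrays compared. Against DKK1-treated cells it was lost (0 lower) with the mean of probe sets, no intensity trend, and the 6 arrays compared with and without the replicate block, and the block on 6 arrays left 5 members higher. Between DKK1-treated and untreated cells the fit without intensity trend called 1 gene, which was higher, and the replicate block on 6 arrays called 65, 29 higher and 36 lower, none of them a member; the block changed no other call between these groups. Setting arrays to one median gave 19 members higher in untreated than primary cells. Counts over all genes are not given here for that setting or for the block on 6 arrays against DKK1-treated cells. Signs turned for values near 0: with one median Rfc3 after DKK1 (-0.011), and Dnmt1 (0.066) and Gins3 (0.044) against primary cells; with the mean of probe sets Mcm4 (0.013) and Rfc3 (-0.037) after DKK1, and Cdc45 (-0.081), Dnmt1 (0.013), Gins1 (-0.34), Gins3 (0.050) and Top2a (-0.35) against primary cells. Cdc45 was called higher on its brightest probe set, and its second is dim. With single arrays left out, the difference after DKK1 ranged from -0.14 to 0.048 for Mcm2, -0.060 to 0.11 for Rfc3 and -0.040 to 0.26 for Ung. The same ranges between untreated and primary cells were -0.14 to 0.66 for Ccne2, -0.12 to 0.17 for Dnmt1, -0.020 to 0.40 for Fen1, -0.22 to 0.33 for Gins3, -0.16 to 0.28 for Prim1, -0.24 to 0.17 for Rfc4 and -0.66 to 0.012 for Tyms. The cause of these changes was not tested.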
